A study of Homo sapiens with 24 samples.

Results

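The 50 genes described here are effectors of the interferon response, that is, genes whose products act against viruses or regulate that response once interferon has been sensed. They were given as a list of symbols that was chosen with earlier results of these data known. Each has a probe on the arrays, and they form 50 of the 20046 genes with a probe of a single symbol. Expression was measured by the study on Illumina HumanHT-12 V4 BeadChips in 3 cancer cell lines, each given both drugs in combination, 5-Aza-CdR, clorgyline or no drug (control). Each of these 12 conditions had 2 arrays. T24 is a bladder carcinoma line, HL-60 a promyelocytic leukemia line and HCT116 a colorectal carcinoma line. 5-Aza-CdR (5-aza-2'-deoxycytidine) inhibits DNA methyltransferases once it is built into DNA, and clorgyline is a monoamine oxidase inhibitor that the study used against the histone demethylase LSD1. The question put to these arrays was whether the combinatorial treatment up-regulates genes beyond either drug alone. In the combination and 5-Aza-CdR conditions, T24 received 1 µM, HL-60 0.1 µM and HCT116 0.3 µM 5-Aza-CdR before it was washed out, and in the combination and clorgyline conditions every line received 10 µM clorgyline each day. RNA was taken at day 18 in T24 and HL-60 and at day 20 in HCT116. All values below are log2 intensities of the brightest probe of a gene in its line, so levels are compared between arrays of a gene and not between genes.

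Type I and type III interferons are secreted when a cell senses foreign nucleic acid. They act through receptors and JAK kinases on a complex of STAT proteins and IRF9, which enters the nucleus and binds a short element, the interferon-stimulated response element (ISRE), in the promoters of interferon-stimulated genes. The products include ISG15, a ubiquitin-like protein with its own conjugation enzymes, proteins that bind or degrade viral RNA (the IFIT and OAS families), proteins that block entry or release of virus particles (the IFITM proteins, MX GTPases and tetherin, encoded by BST2), and small mitochondrial or nuclear-envelope proteins such as IFI6 and IFI27. In cancer cells many of these genes are kept low, and inhibitors of DNA methylation are known to raise them in some lines.

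The cell line labels were set against marker genes before any member was read, with a gene counted as present when its mean lay more than 0.5 log2 units above the median of all probes of its line. HL-60 arrays had 7 of 8 myeloid markers, and of 5 markers of lymphoid and dendritic cells CD79A and NKG7 were present there, at 1.33 and 1.87, with 0 of 5 on the other arrays. On arrays labelled T24, 3 of 7 T24 markers were present, CAV1, VIM and AXL, at 3.43, 2.71 and 1.31 log2 units above the median. KRT7, CDH2, TGFBI and SPARC, also on the list fixed for T24, lay at 0.19, 0.03, 0.04 and 0.14. Of 10 HCT116 markers 3 were present, EPCAM, an epithelial adhesion molecule, at 4.60, KRT8 at 2.76 and CDH1 at 0.53. KRT18, KRT20, LGALS4, VIL1, CDX2, CEACAM5 and CDH17 lay between -0.09 and 0.46. The 6 treated arrays labelled HCT116 gave much the same picture, with 3 of 7 T24 markers, 4 of 10 HCT116 markers and EPCAM at 4.60. The 2 control arrays labelled HCT116 differed, with 7 of 7 T24 markers and 1 of 10 HCT116 markers, the summed level over the T24 list being 23.2 against 7.52 on the treated arrays of that label and 7.86 on arrays labelled T24. Over 47229 probes, arrays labelled T24 correlated with treated arrays labelled HCT116 at a median r of 0.985, with one another at 0.985, and with control arrays labelled HCT116 at 0.909. The labels of these arrays are therefore given as labels throughout, treatments labelled HCT116 are not tested against controls of that label, and whether any label is in error was not tested. The labels do not say whether the 2 arrays of a condition came from separate cultures, so a p value here reflects only how far such arrays lie apart, which may be technical.

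The promoter window of each, 250 bases before to 50 bases after the start of the gene, was read from RefSeq (GRCh38.p14). A window was found for 39 of the 50 members. The core of the ISRE, GAAANNGAAA, or its reverse complement TTTCNNTTTC, stood in at least 1 window of 28 of these 39 genes (71.8%), or in 33 of their 53 windows, against 1255 of all 35116 windows (3.57%). Among members called higher with the combination on T24-labelled arrays 11 of the 14 with a window held a match, and among those not called 17 of 25. In HL-60 4 of the 6 called higher and 1 of the 3 called lower did. Overlapping matches were counted separately. The windows below are of members on which the following results turn, the 5 with the clearest changes on T24-labelled arrays, MX1 and HERC5, which were not called there, and LGALS3BP, which rose in HL-60. Each runs 5′ to 3′ in the direction of the gene, with 20 bases on each side of the outermost match and the matching bases in capitals.
IFI27 (chr14:94110608-94110670, plus strand): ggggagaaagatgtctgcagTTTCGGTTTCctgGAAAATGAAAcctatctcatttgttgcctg
ISG15 (chr1:1013364-1013419, plus strand): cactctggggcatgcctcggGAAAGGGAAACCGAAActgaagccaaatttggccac
IFI6 (chr1:27672256-27672368, minus strand): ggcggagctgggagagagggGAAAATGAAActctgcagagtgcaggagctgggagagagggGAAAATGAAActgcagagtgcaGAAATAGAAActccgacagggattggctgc
IFIT1 (chr10:89392487-89392549, plus strand): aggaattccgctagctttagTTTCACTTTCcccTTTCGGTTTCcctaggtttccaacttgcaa
BST2 (chr19:17405725-17405780, minus strand): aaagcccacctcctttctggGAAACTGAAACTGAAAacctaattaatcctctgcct
MX1 (chr21:41420549-41420598, plus strand): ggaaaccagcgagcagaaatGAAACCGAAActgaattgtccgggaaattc
HERC5 (chr4:88456974-88457074, plus strand): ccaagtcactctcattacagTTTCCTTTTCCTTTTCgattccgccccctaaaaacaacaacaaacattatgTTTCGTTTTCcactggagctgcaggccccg
LGALS3BP (chr17:78979952-78980001, minus strand): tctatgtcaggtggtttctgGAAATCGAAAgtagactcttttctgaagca
IFI27 carried matches from position -108 and from -95, on opposite strands. ISG15 and BST2 each carried 2 overlapping matches, from -113 and -107 in ISG15 and from -130 and -124 in BST2. IFI6 had 3 matches, from -156, -115 and -93, and MX1 had its match after the start, from position 12. A match is a description of the letters only, and binding was not measured on these arrays.

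In arrays labelled T24, the combinatorial treatment up-regulated 16 of the 50 genes (32%) and lowered 0, at a Benjamini-Hochberg adjusted p under 0.05 in limma. Of all 20046 genes, 3.12% were higher and 2.57% lower by the same rule. The median change of the 50 members was 0.16, against 0.00 over all genes, and 43 members lay above 0. On 36 members both combination arrays lay above both control arrays, as they did for 24.6% of all genes. The members that rose belonged to most of the functional classes, with 5 of 9 viral RNA binding and degrading proteins, 3 of 11 proteins of virus entry, trafficking and release, 2 of 4 proteins of nuclear bodies and DNA sensing, 1 of 5 of the ISG15 conjugation system, 1 of 6 of the ADP-ribosylation and SAMD9 group, and 4 of 9 of the remaining group that holds IFI6 and IFI27. None of the 2 chemokines (CXCL10, CXCL11), 2 guanylate-binding proteins (GBP1, GBP2) or 2 nucleotide enzymes (RSAD2, CMPK2) was called. The classes are broad groups made for this description, and a gene's place in one does not state its function. In bulk RNA of a culture, more RNA in each cell and more cells that express a gene cannot be told apart.

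The largest fitted change was that of IFI27, a small hydrophobic protein of mitochondria and the nuclear envelope that is among the genes most strongly induced by interferon. Its level (probe ILMN_2058782) was 10.63 and 11.34 on the combination arrays, 8.42 and 8.46 with 5-Aza-CdR, 8.10 and 8.15 with clorgyline and 8.10 and 8.10 in controls. Both combination arrays stood above all others, and controls lay at the median of the line's probes, 8.10, so whether the probe was above background in them is unknown and no fold is given. The fitted log2 change with the combination was 2.88 ± 0.21 (SE, adjusted p = 0.00225).

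ISG15, the ubiquitin-like modifier, was already expressed without treatment. Its level (probe ILMN_2054019) was 12.47 and 12.89 with the combination, 10.45 and 10.30 with 5-Aza-CdR, 10.58 and 10.36 with clorgyline and 9.90 and 10.27 in controls. The combination arrays did not overlap any other, and the single-drug arrays lay just above the controls, with log2 changes of 0.29 and 0.39 that were not called. With the combination the change was 2.59 ± 0.18 (adjusted p = 0.00198), or 6.03-fold. The genes that attach, remove or hand on ISG15 did not pass the threshold. HERC5, the main ligase for ISG15 in human cells, read 9.97 and 10.57 with the combination, against 9.55 and 9.31 in controls, a change of 0.84 ± 0.24 with an adjusted p of 0.124. The changes of UBE2L6, the conjugating enzyme, HERC6, a relative of HERC5, and USP18, the protease that removes ISG15, were 0.08, 0.11 and -0.04.

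IFI6, a mitochondrial protein that protects cells from apoptosis, (probe ILMN_1687384) was 11.70 and 12.43 on combination arrays, 9.55 and 9.72 with 5-Aza-CdR, 9.42 and 9.52 with clorgyline and 9.45 and 9.61 in controls. The combination arrays stood above the other 6, and the change was 2.54 ± 0.23 (adjusted p = 0.005). A further probe of IFI6 gave 1.66. IFI44, a cytoplasmic interferon-induced protein, read 8.51 and 8.63 with the combination, against 8.17 and 8.13 in controls (change 0.42 ± 0.05, adjusted p = 0.00863), while IFI44L, its paralog, read 8.15 and 8.19, against 8.12 and 8.13 (change 0.04, not called). IFI30, a lysosomal thiol reductase of antigen processing, rose by 0.22 ± 0.04 (adjusted p = 0.0361), which was the smallest of the 16 changes.

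Among the proteins that bind or degrade viral RNA, IFIT1, which binds RNA lacking cap methylation, changed most. Its probe ILMN_1707695 read 9.94 and 10.52 with the combination, 8.84 and 8.65 with 5-Aza-CdR, 8.64 and 8.81 with clorgyline and 8.57 and 8.53 in controls. The combination arrays stood apart from the other 6, and the change was 1.68 ± 0.19 (adjusted p = 0.00903), while a dimmer probe of IFIT1 that stayed near the median showed 0.00. IFIT2, a partner of IFIT1, read 8.63 and 8.99 with the combination, against 8.15 and 8.11 in controls (0.68 ± 0.11, adjusted p = 0.0245). For both genes the groups did not overlap. ISG20, a 3′ exonuclease, read 9.27 and 9.32 with the combination, against 8.74 and 8.89 in controls (0.48 ± 0.07, adjusted p = 0.0229). OAS3, an oligoadenylate synthetase that activates RNase L, read 8.84 and 8.996, against 8.54 and 8.46 (0.42 ± 0.06, adjusted p = 0.0204), with 0.06 on its other probe. OASL, a relative of OAS3 without that activity, lay near the median of the line and read 8.28 and 8.40 with the combination, against 8.05 and 8.08 in controls (0.28 ± 0.04, adjusted p = 0.0245). IFIT3, IFIT5, OAS1 and OAS2 changed by 0.13, 0.11, 0.04 and 0.12 and were not called.

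Tetherin, which holds budding virus on the cell surface and is encoded by BST2, gave the smallest adjusted p of the members. Its level was 8.99 and 9.12 with the combination, 8.49 and 8.52 with 5-Aza-CdR, 8.11 and 8.18 with clorgyline and 8.16 and 8.17 in controls. The combination arrays were highest and both 5-Aza-CdR arrays lay between them and the rest. The change was 0.89 ± 0.05 with the combination (adjusted p = 0.00105), and 0.34 with 5-Aza-CdR alone (adjusted p = 0.128). IFITM1, a membrane protein that restricts virus entry, was 8.60 and 8.89 with the combination, against 8.11 and 8.19 in controls (0.59 ± 0.09, adjusted p = 0.023). PLSCR1, a phospholipid scramblase with antiviral activity, read 8.47 and 8.46 with the combination, against 8.20 and 8.23 in controls (0.25 ± 0.02, adjusted p = 0.00599). Neither gene had a combination array within the control range. MX1, a dynamin-like GTPase that blocks viral nucleocapsids, missed the threshold. It read 8.71 and 9.45 with the combination, against 8.14 and 8.13 in controls, so both combination arrays were above all others but 0.74 apart, and its change of 0.94 ± 0.22 had an adjusted p of 0.0717. IFITM2 (change 0.66, adjusted p = 0.0594) and IFITM3 (0.45, adjusted p = 0.247), close relatives of IFITM1, were not called.

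SP110, a nuclear body protein, was 8.97 and 9.17 with the combination, 8.42 and 8.47 with 5-Aza-CdR, 8.49 and 8.53 with clorgyline and 8.40 and 8.39 in controls. Combination and control arrays did not overlap, with a change of 0.67 ± 0.06 (adjusted p = 0.00583), and the 3 other probes of SP110 gave 0.66, 0.24 and 0.09. IFI35, a leucine zipper protein, read 8.69 and 8.70 with the combination, against 8.49 and 8.37 in controls (0.26 ± 0.05, adjusted p = 0.0449). PARP9, which forms a complex with the ubiquitin ligase DTX3L, was 8.73 and 8.84 with the combination, against 8.29 and 8.29 in controls (0.50 ± 0.05, adjusted p = 0.00692), whereas DTX3L, whose gene lies head to head with PARP9, read 8.13 and 8.15, against 8.09 and 8.03 (change 0.08, not called). PARP9 arrays of the combination stood apart from all others. PARP12, which is in the same class and was not called, read 8.60 and 8.97 with the combination, against 8.31 and 8.32 in controls (0.47 ± 0.11, adjusted p = 0.0787). The remaining uncalled members of these classes changed by between -0.25 (LGALS3BP) and 0.35 (LY6E). They were MX2, TRIM14, TRIM22, LY6E and LGALS3BP in the group of entry, trafficking and release, and PARP14, SAMD9 and SAMD9L beside PARP9. PML and IFI16 in the group of nuclear bodies and DNA sensing were also among them, as were XAF1, EPSTI1, LAMP3 and RTP4 in the remaining group.

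**Figure D1:**
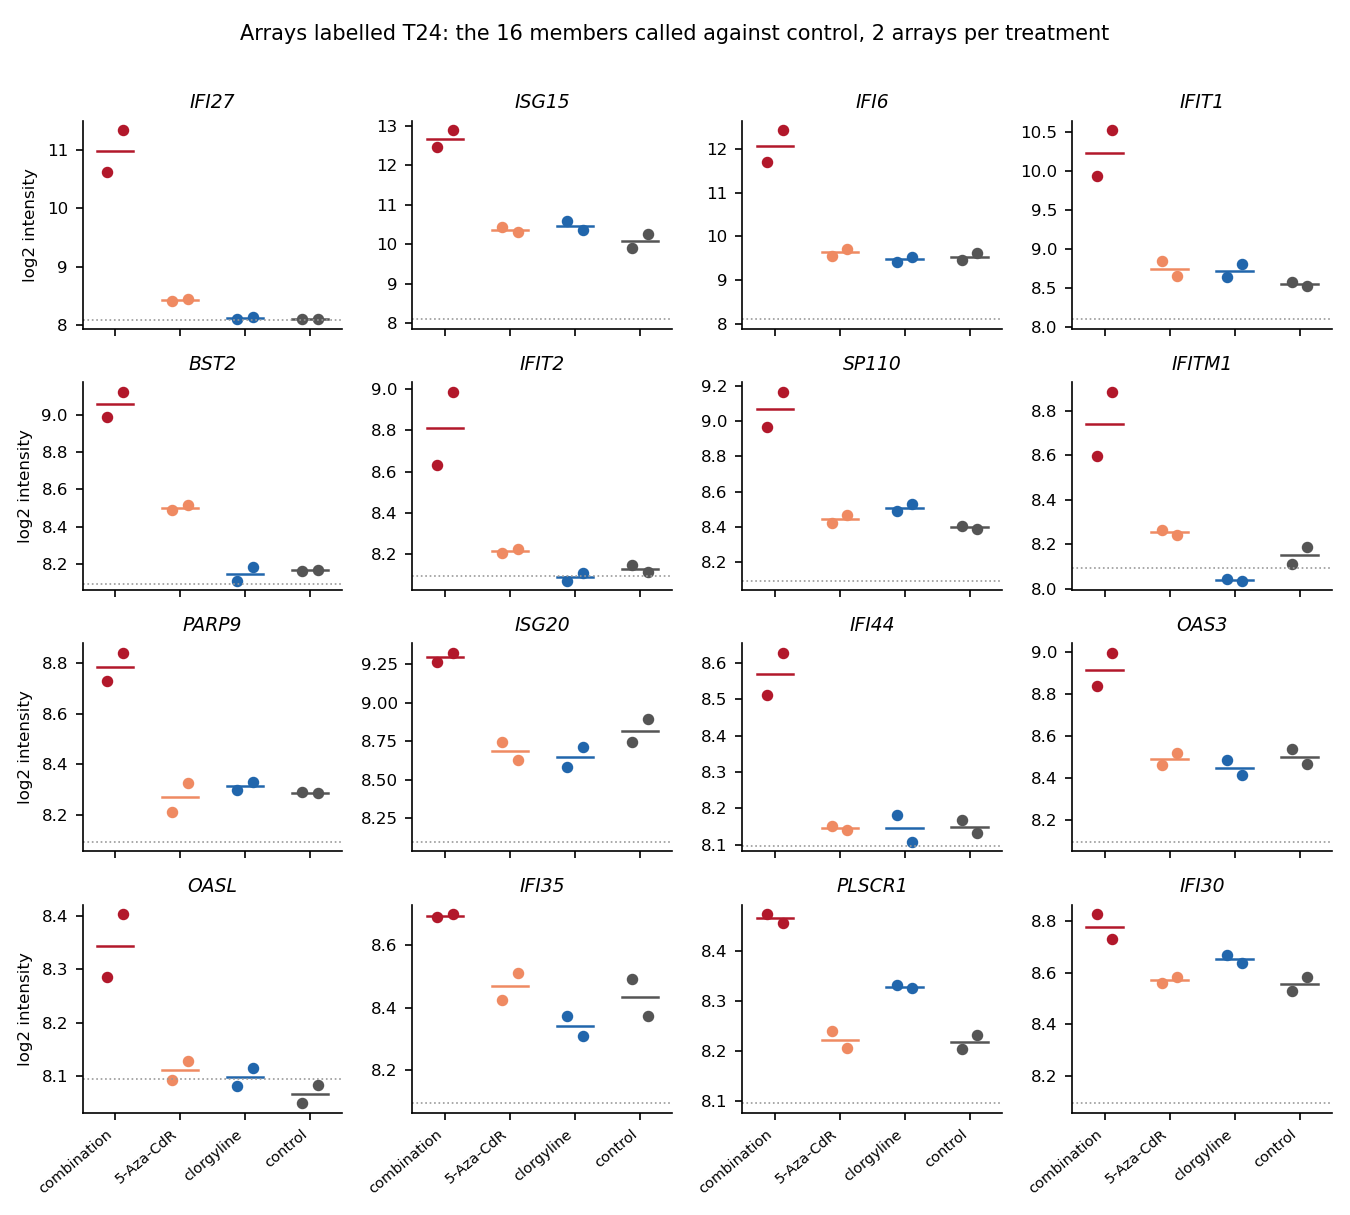
Log2 intensity (vertical axis, scaled to each gene) of the 16 genes called against control on arrays labelled T24, in order of their combination change. Points are single arrays, short lines are means of 2 arrays and the dotted line is the median of all probes; in every panel both combination arrays lie above both control arrays.

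Of the 50 members, 37 had a mean over all arrays within 0.5 log2 units of the line's median or below it, including RSAD2, CMPK2, CXCL10, CXCL11, GBP1, TRIM22 and RTP4, and whether these probes were above background is unknown. Of the 16 called genes 3 (ISG15, IFI6 and ISG20) had control levels above that limit. On 14 of the 16, combination replicate 2 read higher than combination replicate 1. The count of 16 rested on the control arrays. Without control replicate 1 it was 3 (BST2, IFI27 and ISG15) and without control replicate 2 it was 5 (those 3, IFI6 and PLSCR1). By the limits in the study's methods, an unadjusted p under 0.01 and a fold over 2, 4 members were higher (IFI27, ISG15, IFI6 and IFIT1), as were 0.334% of all genes.

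Neither drug alone moved any member past the threshold in arrays labelled T24. With 5-Aza-CdR 0 of 50 were called in limma (0.14% of all genes in either direction), with 3 higher and 1 lower at an unadjusted p under 0.05, which 9.09% of all genes had. With clorgyline 0 of 50 were called (0.459% of all genes), with 1 higher and 1 lower at an unadjusted p under 0.05, against 12.3% of all genes. The highest change with 5-Aza-CdR was that of LY6E, a surface protein that restricts coronaviruses, at 0.55 (adjusted p = 0.303). The combination was set against each drug directly. Against 5-Aza-CdR, 12 members were higher (1.65% of all genes) and 0 lower, and against clorgyline 17 were higher (2.61% of all genes) and 0 lower. IFI27 was 2.54 ± 0.21 above the 5-Aza-CdR level (adjusted p = 0.0069) and 2.85 ± 0.21 above the clorgyline level (adjusted p = 0.00295). UBE2L6 was called only against 5-Aza-CdR, at 0.38 ± 0.05. These counts also moved with single arrays. The count against 5-Aza-CdR was 5 without 5-Aza-CdR replicate 2 and 7 without either control array, and the count against clorgyline was 5 without either clorgyline array and 10 without either control array.

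The excess of the combination over the sum of the 2 single-drug changes, on the log2 scale, passed the threshold in 2 members, where 0.484% of all genes were called higher. For IFI27 the excess was 2.52 ± 0.30 (adjusted p = 0.0383) and for BST2 it was 0.57 ± 0.07 (adjusted p = 0.0447). No single control, 5-Aza-CdR or clorgyline array could be left out without the loss of both calls. Without combination replicate 1 the count was 11 and without combination replicate 2 it was 4.

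In HL-60 cells 13 members were called with the combination, in both directions. Of these, 5 were also called on T24-labelled arrays, and the genes called in both lines were not counted over all genes. The combination raised 9 of 50 (18%), where 8.7% of all 20045 genes were called higher, and lowered 4 (8%), close to the 8.47% of all genes called lower. The median change of the members was -0.01, against -0.01 over all genes. The 9 were ISG15, UBE2L6, MX2, IFITM2, IFITM3, LGALS3BP, LY6E, IFI6 and IFI30, and the 4 were BST2, XAF1, GBP2 and SP110. None of the 9 viral RNA binding and degrading proteins was called with the combination in HL-60, in either direction. By the distance from the median used above for T24-labelled arrays, 29 of the 50 members were near the HL-60 median or below it. All of the 9 except ISG20 were among them, so whether their probes were above background is unknown. With 8.7% and 8.47% of all genes called, 9 genes are also too few for an absence of calls to set the class apart.

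MX2, a dynamin-like GTPase that blocks nuclear import of HIV, had the largest fitted change. Its probe ILMN_2231928 read 9.16 and 9.15 with the combination, 8.96 and 8.96 with 5-Aza-CdR, 7.69 and 7.47 with clorgyline and 7.54 and 7.68 in controls. The arrays fell into 2 levels, with 5-Aza-CdR present or absent, and the clorgyline arrays overlapped the controls, which lay near the median of the line's probes, 7.53, so whether the probe was above background in them is unknown. The change was 1.55 ± 0.10 with the combination (adjusted p = 1.57e-06) and 1.35 ± 0.10 with 5-Aza-CdR alone (adjusted p = 6.62e-06).

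ISG15 in HL-60 read 11.08 and 10.93 with the combination, 10.73 and 10.82 with 5-Aza-CdR, 10.29 and 10.08 with clorgyline and 9.94 and 10.04 in controls. Its change was 1.02 ± 0.10 with the combination (adjusted p = 5.98e-05) and 0.78 with 5-Aza-CdR (adjusted p = 0.000554), and 0.19 with clorgyline, which was not called. The arrays without 5-Aza-CdR lay below those with it. IFI30 read 8.95 and 8.88 with the combination, 8.85 and 9.07 with 5-Aza-CdR, 8.07 and 8.07 with clorgyline and 8.17 and 8.20 in controls, with changes of 0.73 with the combination (adjusted p = 0.000376) and 0.78 with 5-Aza-CdR (adjusted p = 0.000363). The arrays of these treatments overlapped and lay above the rest. LGALS3BP, a secreted glycoprotein that binds galectin, read 8.26 and 8.08 with the combination, 8.08 and 8.19 with 5-Aza-CdR, 7.51 and 7.62 with clorgyline and 7.34 and 7.48 in controls (0.76 and 0.72 above control with the combination and 5-Aza-CdR). IFITM2 was 13.20 and 13.06 with the combination, 12.72 and 13.08 with 5-Aza-CdR, 12.29 and 12.27 with clorgyline and 12.46 and 12.27 in controls. In both genes every array that received 5-Aza-CdR was above every array that did not. These 5 genes, ISG15, IFI30, MX2, LGALS3BP and IFITM2, were the 5 members that 5-Aza-CdR alone raised, where 5.46% of all genes were called higher, and each was also called with the combination. IFI6 and IFITM3 were called with the combination alone. IFI6 read 11.06 and 10.86 with the combination, 10.45 and 10.52 with 5-Aza-CdR, 10.54 and 10.57 with clorgyline and 10.46 and 10.0008 in controls (0.73 ± 0.13, adjusted p = 0.00314). IFITM3 read 7.96 and 8.04 with the combination, 7.92 and 7.91 with 5-Aza-CdR, 7.61 and 7.77 with clorgyline and 7.73 and 7.63 in controls (0.32 ± 0.09, adjusted p = 0.0326). For IFITM3 the 5-Aza-CdR arrays also lay above both controls.

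A separate pair of members followed clorgyline. UBE2L6, the ISG15 conjugating enzyme, read 10.27 and 10.43 with the combination, 9.44 and 9.57 with 5-Aza-CdR, 10.88 and 10.79 with clorgyline and 9.97 and 9.84 in controls. The 4 conditions did not overlap, with clorgyline highest and 5-Aza-CdR lowest. The changes were 0.44 ± 0.10 with the combination (adjusted p = 0.00905), -0.40 ± 0.10 with 5-Aza-CdR (adjusted p = 0.0235) and 0.93 ± 0.10 with clorgyline (adjusted p = 0.000736). The other probes of UBE2L6 moved by 0.26 and -0.07 with the combination, and on the mean of its probes the first 2 calls were lost. LY6E was 12.27 and 12.18 with the combination, 11.58 and 11.66 with 5-Aza-CdR, 12.08 and 12.16 with clorgyline and 11.54 and 11.58 in controls. Here the conditions that held clorgyline stood above the others, by 0.66 ± 0.09 with the combination (adjusted p = 0.000398) and 0.56 ± 0.09 with clorgyline alone (adjusted p = 0.0111) relative to control. Clorgyline raised 4 members (0.738% of all genes were called higher), the remaining 2 being IFI16, a DNA sensor, at 0.53 ± 0.10, and HERC6, which read 8.56 and 8.42 with the combination, 8.30 and 8.18 with 5-Aza-CdR, 8.62 and 8.87 with clorgyline and 8.20 and 8.25 in controls, at 0.52 ± 0.10. Without any 1 of the control or clorgyline arrays the count was 1, UBE2L6. UBE2L6 and LY6E were also the 2 members higher with the combination than with 5-Aza-CdR, by 0.84 ± 0.10 and 0.61 ± 0.09, where 2.28% of all genes were called, and LY6E was lost from these without combination replicate 1, which left 1.

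BST2 fell in HL-60 with all 3 treatments. Its level was 10.38 and 10.38 with the combination, 10.27 and 9.88 with 5-Aza-CdR, 10.18 and 10.03 with clorgyline and 10.81 and 10.85 in controls. Every treated array was below both controls. The changes were -0.45 ± 0.12 with the combination (adjusted p = 0.0227), -0.76 with 5-Aza-CdR (adjusted p = 0.00212) and -0.72 with clorgyline (adjusted p = 0.0153). Since the fall with both drugs was smaller than the sum of the falls with each, BST2 was the 1 member with a called excess in HL-60 (1.03 ± 0.17, adjusted p = 0.0313, with 0.13% of all genes called higher), and the call was lost without any 1 array other than 5-Aza-CdR replicate 1. GBP2, a guanylate-binding GTPase, behaved likewise, at 8.13 and 8.12 with the combination, 8.07 and 8.13 with 5-Aza-CdR, 7.94 and 8.11 with clorgyline and 8.81 and 8.55 in controls. All treated arrays again lay under both controls, with changes of -0.55, -0.58 and -0.66. BST2 and GBP2 were the 2 members that clorgyline lowered, where 0.419% of all genes were called lower, and the count was 0 without control replicate 1 or clorgyline replicate 1 and 1 (GBP2) without control replicate 2 or clorgyline replicate 2.

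XAF1, a proapoptotic antagonist of XIAP, read 9.19 and 9.05 with the combination, 9.10 and 9.09 with 5-Aza-CdR, 9.82 and 9.74 with clorgyline and 9.48 and 9.55 in controls. The 2 conditions with 5-Aza-CdR lay below the controls (-0.39 and -0.42) and the clorgyline arrays above them (0.26, not called). SP110 was 9.95 and 9.96 with the combination, 9.80 and 9.90 with 5-Aza-CdR, 10.67 and 10.46 with clorgyline and 10.34 and 10.21 in controls, and was called lower with the combination (-0.32, adjusted p = 0.0465) and with 5-Aza-CdR (-0.43, adjusted p = 0.0176). The combination call of SP110 was lost on the mean of its probes. ISG20 read 8.08 and 8.29 with the combination, 8.08 and 8.16 with 5-Aza-CdR, 8.36 and 8.29 with clorgyline and 8.46 and 8.47 in controls, and was called lower with 5-Aza-CdR only (-0.34, adjusted p = 0.0429), although every treated array was below the controls. In all, 5-Aza-CdR lowered 6 members, BST2, XAF1, GBP2, SP110, UBE2L6 and ISG20, where 4.94% of all genes were called lower. Leaving out control replicate 1 or 5-Aza-CdR replicate 2 brought that count to 2 and leaving out 5-Aza-CdR replicate 1 to 3. The count of 4 with the combination was 2 without control replicate 1, 1 without control replicate 2 and 2 without combination replicate 1.

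Set against clorgyline alone, the combination in HL-60 had 7 members higher (7.67% of all genes) and 4 lower (7.79%), the 4 being XAF1, SP110, UBE2L6 and IFI16, with 2 left without clorgyline replicate 1. By the limits in the study's methods 2 members, MX2 and ISG15, were higher with the combination in HL-60, as were 1.15% of all genes. IFI27 read 7.43 and 7.41 with the combination, 7.49 and 7.51 with 5-Aza-CdR, 7.48 and 7.49 with clorgyline and 7.51 and 7.48 in controls. No HL-60 array rose above the median of the line's probes, 7.53, at this gene, which had the largest fitted change on T24-labelled arrays. IFITM1 was in turn high in HL-60, at 11.89 and 11.78 with the combination, against 11.94 and 11.75 in controls, and was not called.

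**Figure D2:**
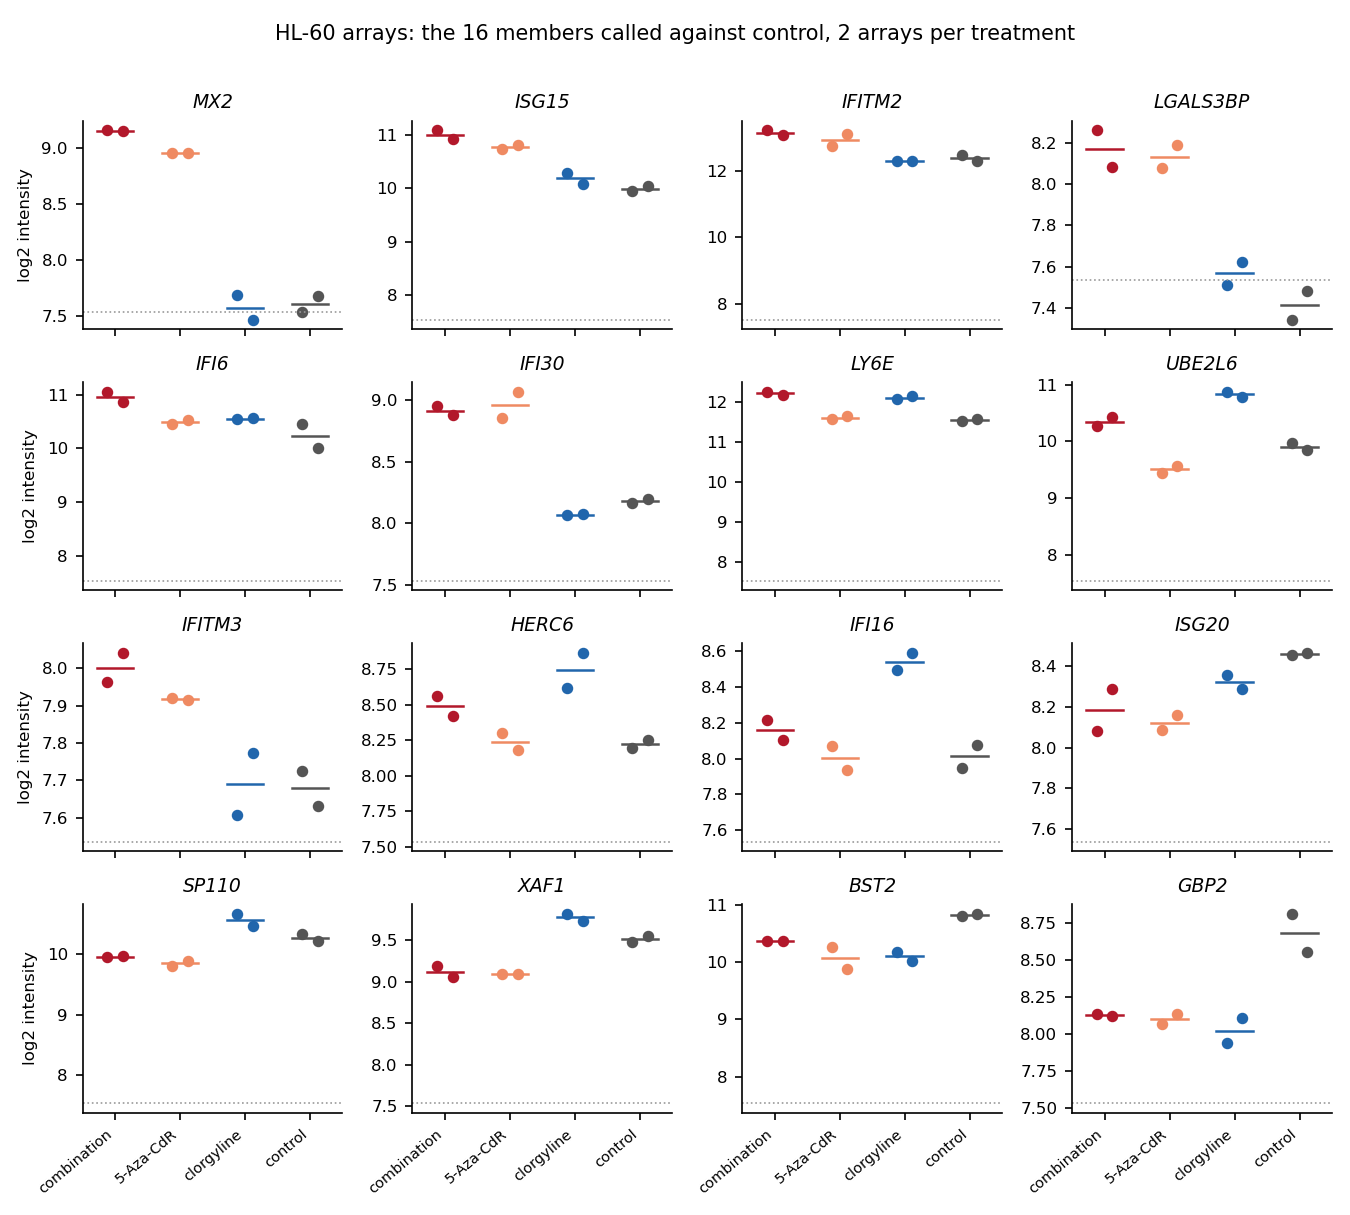
Log2 intensity (vertical axis, scaled to each gene) of the 16 genes called against control by at least 1 treatment in HL-60, in order of their combination change. Points are single arrays, short lines are means of 2 arrays and the dotted line is the median of all probes; MX2 and LGALS3BP are high on the arrays that received 5-Aza-CdR, UBE2L6 and LY6E on those that received clorgyline, and BST2 and GBP2 are lower on every treated array than in controls.

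No member could be called lower with the combination in both lines, since none was called lower on T24-labelled arrays. ISG15, IFI6 and IFI30 were called higher with the combination in both arrays labelled T24 and HL-60. How many of all genes were called higher in both was not counted, so these 3 are given without a share. Without control replicate 1 of the T24 label only ISG15 of these 3 was left, and the T24-labelled call of IFI30 held in 4 of 16 alternatives. The difference between the lines was tested in a joint fit, as the change in HL-60 minus the change on T24-labelled arrays. The lines were normalized apart, so only changes within a line are set against each other. The doses of 5-Aza-CdR differed between these lines, so line and dose cannot be told apart. The difference was called above 0 for 4 members, where 7.3% of all genes were called in that direction, and below 0 for 16, where 6.92% were. The sign does not tell in which line a gene moved further. XAF1 changed by -0.39 in HL-60 and -0.06 on T24-labelled arrays, and GBP2 by -0.55 and 0.20. The 4 were MX2 (difference 1.37 ± 0.10, adjusted p = 6.38e-06), LGALS3BP (1.01 ± 0.16, adjusted p = 0.00172), IFI30 and UBE2L6. Of the 16, IFI27 differed most, at -2.95 ± 0.22 (adjusted p = 5.52e-06), ahead of IFIT1 at -1.91 ± 0.20 (adjusted p = 9.37e-05), IFI6 at -1.81 ± 0.28 (adjusted p = 0.00115) and ISG15 at -1.58 ± 0.21 (adjusted p = 0.000409). BST2 and SP110 changed in opposite directions, up on T24-labelled arrays and down in HL-60, with differences of -1.34 ± 0.14 (adjusted p = 0.000103) and -0.97 ± 0.12 (adjusted p = 0.000228). Across the 50 members the 2 sets of changes correlated at r = 0.16 (Spearman's rho -0.07), as a description over genes that are not independent.

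**Figure D3:**
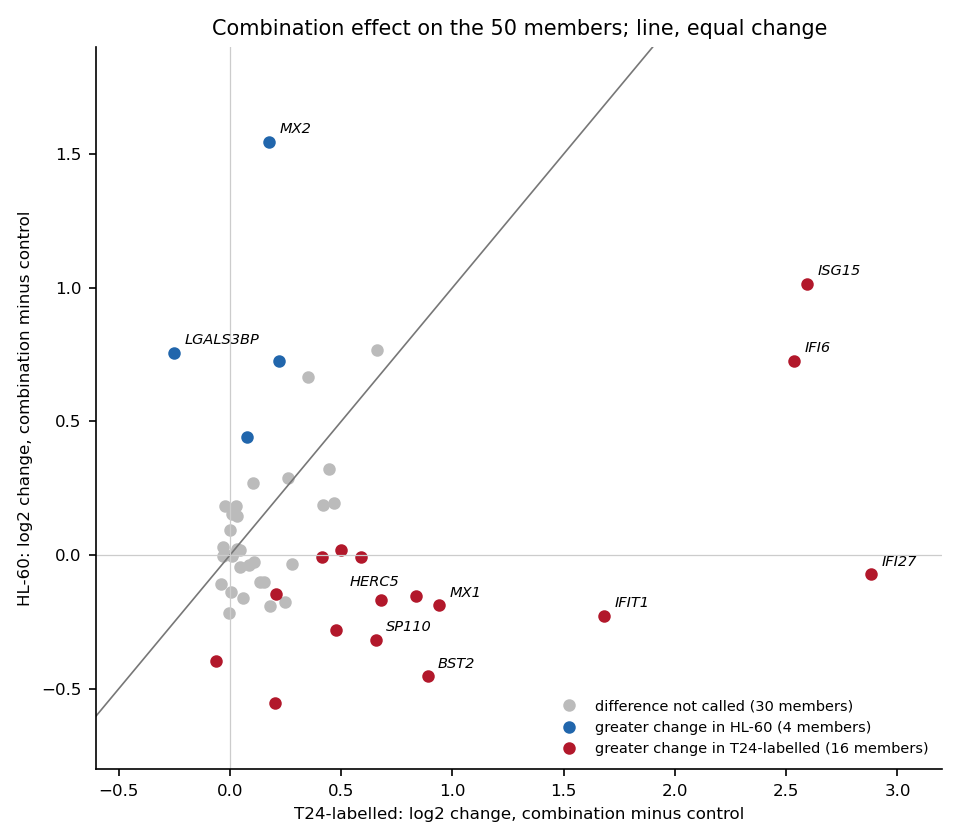
Log2 change of each of the 50 members with the combination relative to control, on arrays labelled T24 (horizontal axis) and in HL-60 (vertical axis), each point a gene and the diagonal marking equal change. Colours give the sign of called differences: 4 genes with the higher signed change in HL-60, 16 with the higher signed change on T24-labelled arrays, and the other 30. IFI27 lies at 2.88 and -0.07, MX2 at 0.18 and 1.55.

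**Figure D4:**
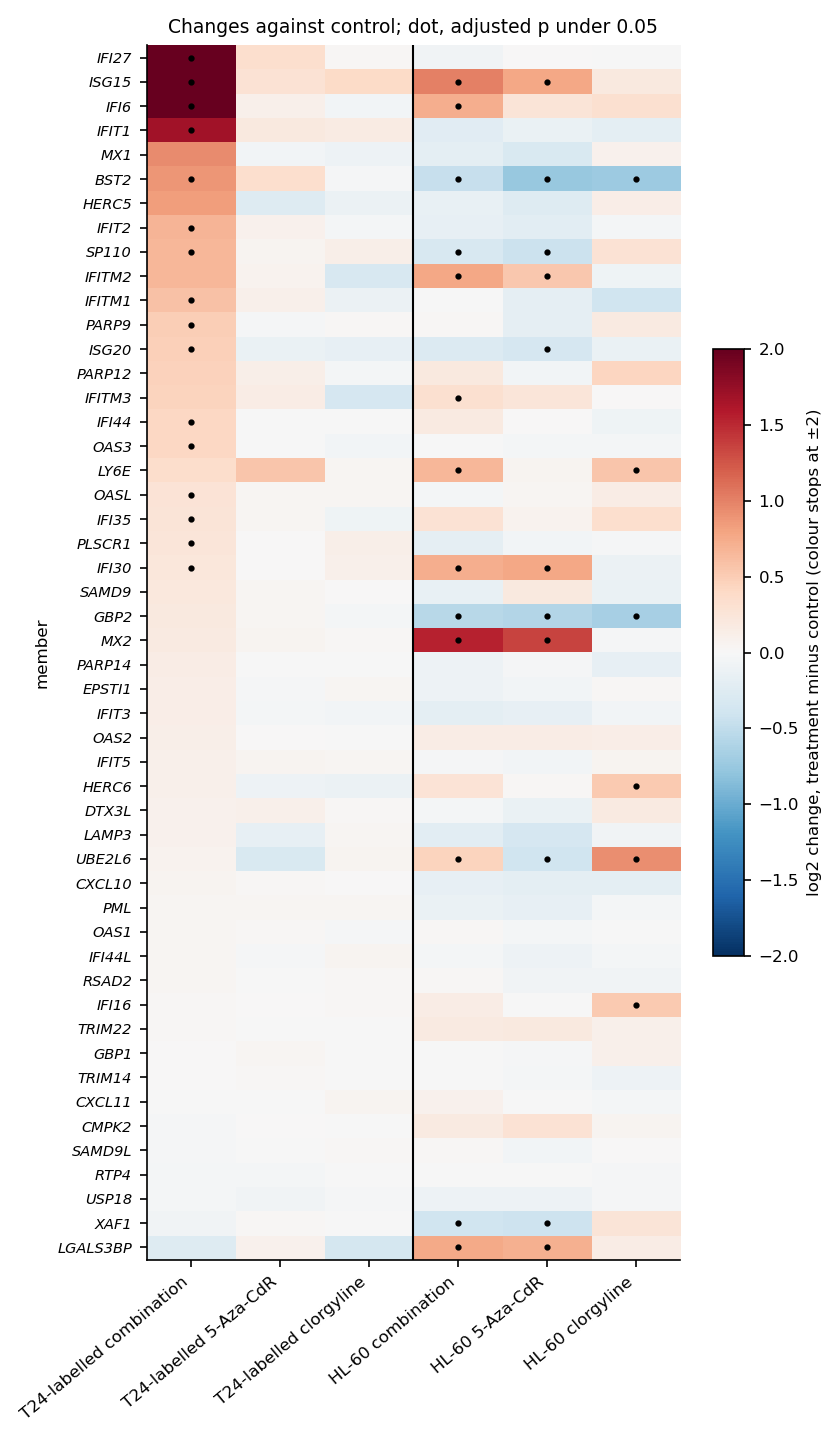
Log2 change against control for the 50 members (rows, in order of the combination change on T24-labelled arrays) under each treatment of T24-labelled and HL-60 arrays (columns), with colour from -2 to 2 and a dot where limma's adjusted p was under 0.05. The first column holds 16 dots and 0 called falls, the other T24-labelled columns hold 0, and the HL-60 columns hold 13, 11 and 6 in both directions.

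Further genes of the same pathway that are no members, 74 with a probe out of 84 listed, were read in the same fits. They were set apart from the members by the lists alone, and whether they act as effectors was not tested. On T24-labelled arrays the combination raised 3 and lowered 0 of the 74 (4.05% higher, close to the 3.12% of all genes), with a median change of 0.01. IRF9, the DNA-binding partner of the STAT proteins, rose by 1.58 ± 0.11 (adjusted p = 0.00221), IRF7, which drives interferon genes, by 1.29 ± 0.15 (adjusted p = 0.0091), and EIF2AK2, the RNA-dependent kinase PKR, by 1.02 ± 0.19 (adjusted p = 0.0369). None of the 21 interferon ligands was called there or in HL-60, under any of the treatments against control. Their median change with the combination was 0.01 on T24-labelled arrays and 0.01 in HL-60. Whether their probes were above background is unknown, and whether interferon was made was not tested. In HL-60 the combination raised 8 (10.8%) and lowered 7 (9.46%) of the 74, where 8.7% and 8.47% of all genes were called. Of the 7 transcription factors, 2 were called higher and 2 lower there, with a median change of 0.14. IRF7 fell by 0.56 and IRF1 by 0.77. Of the 20 antigen presentation genes, 4 were called higher and 1 lower. PSMB9, an immunoproteasome subunit, rose by 0.78 and CD74, the invariant chain of class II antigen presentation, by 0.76.

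Arrays labelled HCT116 were compared among the 3 treatments only. Against 5-Aza-CdR, clorgyline had 16 members higher (32%) and 0 lower, where 0.918% of all genes were called higher. The combination had 12 members lower than clorgyline and 0 higher, where 0.549% of all genes were called lower, and against 5-Aza-CdR it had 0 called in limma, as 0% of all genes were, with 3 members (6%) at an unadjusted p under 0.05, against 8.61% of all genes. ISG15 was 12.76 and 12.60 on the clorgyline arrays, 9.75 and 9.71 with 5-Aza-CdR, 9.78 and 10.02 with the combination and 10.73 and 10.62 in controls. IFI27 was 11.18 and 11.03 with clorgyline, 7.68 and 7.68 with 5-Aza-CdR, 7.73 and 7.74 with the combination and 9.88 and 11.47 in controls. The clorgyline arrays lay above both other treatments for both genes, and the controls above the combination and 5-Aza-CdR. Clorgyline exceeded 5-Aza-CdR by 2.95 ± 0.10 for ISG15 (adjusted p = 0.00199) and by 3.43 ± 0.06 for IFI27 (adjusted p = 0.000413).

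IFI6 read 12.72 and 12.34 with clorgyline, 8.64 and 9.06 with 5-Aza-CdR and 9.12 and 9.33 with the combination, so that clorgyline was 3.69 ± 0.19 above 5-Aza-CdR (12.9-fold, adjusted p = 0.00824). IFIT1 read 10.43 and 10.50 with clorgyline, 8.07 and 8.08 with 5-Aza-CdR and 8.11 and 8.21 with the combination (2.39 ± 0.05 above 5-Aza-CdR, adjusted p = 0.000413). MX1 read 9.16 and 8.88 with clorgyline, 7.61 and 7.64 with 5-Aza-CdR and 7.70 and 7.64 with the combination (1.40 ± 0.10, adjusted p = 0.014). In each of the 3 genes the clorgyline arrays stood clear of the other treatments. For 32 of the 50 members both clorgyline arrays lay above all 4 arrays of the other treatments, for 35 both controls did, and for 26 both held, against 11.7%, 18.7% and 4.42% of all genes. Leaving out either 5-Aza-CdR array brought the count of 16 to 2 and leaving out either combination array, which only enters through the shared spread, brought it to 9. Without clorgyline replicate 1 it was 10. The count of 12 was 3 without either 5-Aza-CdR array or combination replicate 1 and 5 without combination replicate 2.

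**Figure D5:**
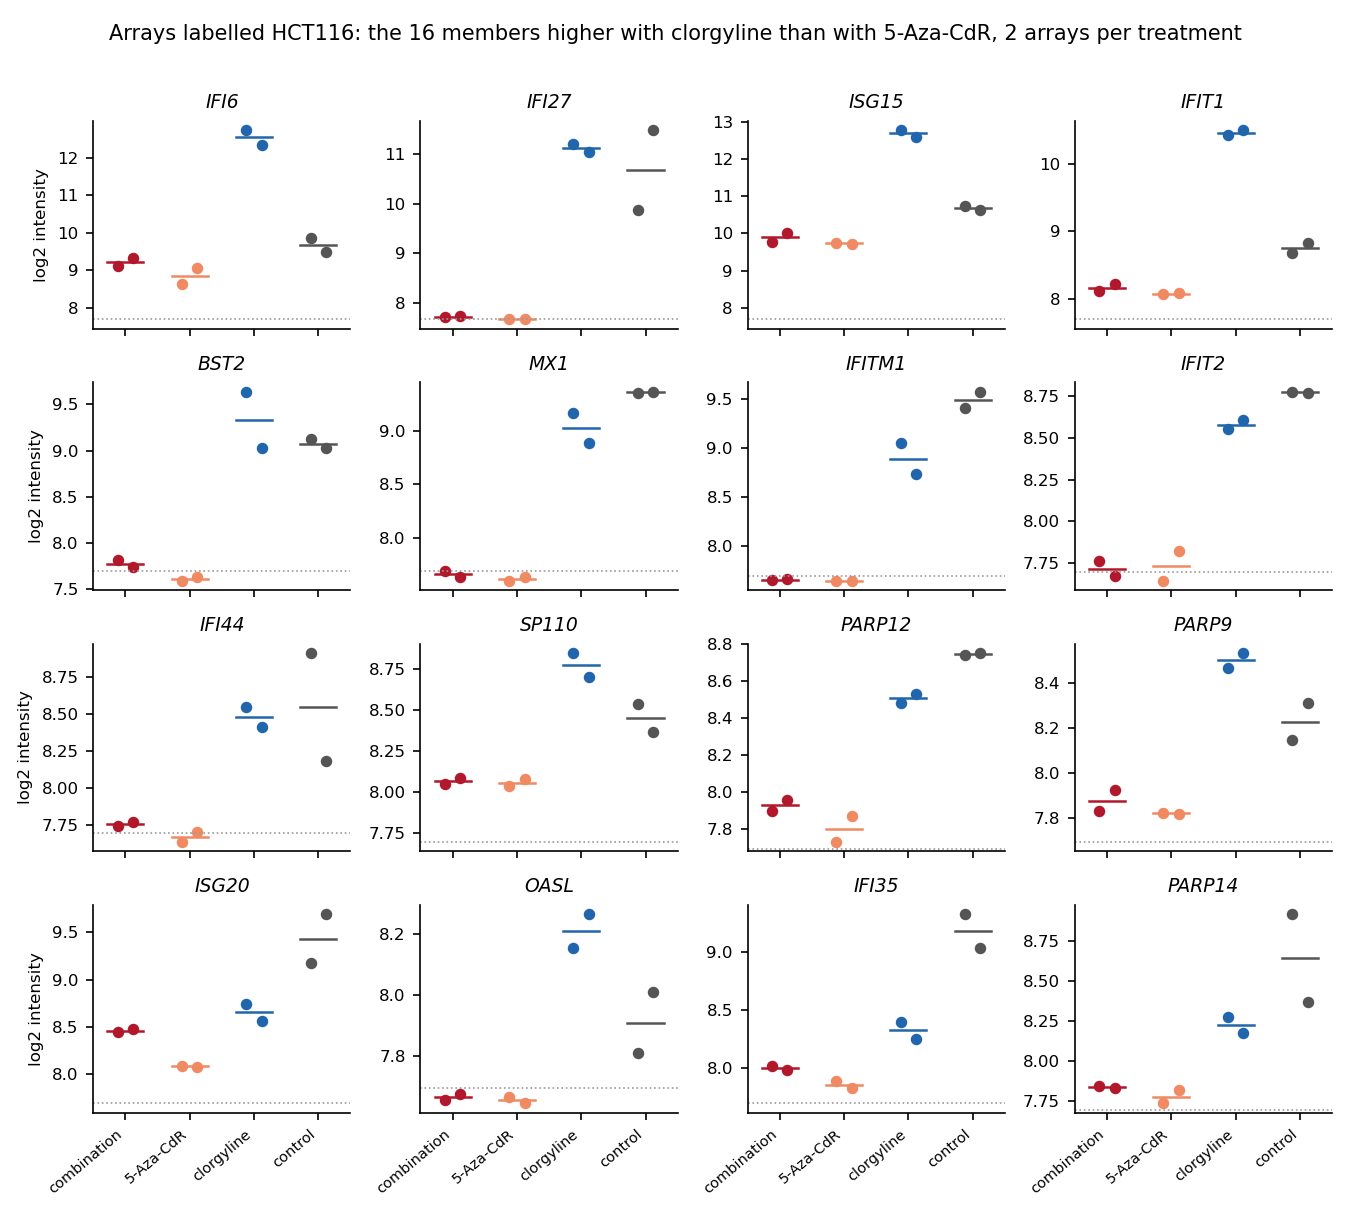
Log2 intensity (vertical axis, scaled to each gene) on arrays labelled HCT116 of the 16 genes higher with clorgyline than with 5-Aza-CdR, in order of that difference. Points are single arrays, short lines are means of 2 arrays and the dotted line is the median of all probes; in every panel both clorgyline arrays lie above both 5-Aza-CdR and both combination arrays.

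The clorgyline arrays labelled HCT116 and the combination arrays labelled T24 picked out similar members. The 16 members higher in clorgyline than in 5-Aza-CdR under the HCT116 label and the 16 raised by the combination under the T24 label had 13 in common, 81.2% of each list. Of all genes, 0.918% and 3.12% were called higher in these comparisons. How many genes those lists shared was not counted, so whether the sharing is particular to the members was not tested. The changes of the 50 members correlated at r = 0.95 between these comparisons, which share no array, and those of all 20046 genes at 0.43. These r are descriptions over genes that are not independent. IFI27, ISG15, IFI6 and IFIT1 changed most in both comparisons, and how far the r of the members rests on them was not tested. With the T24-labelled change under 5-Aza-CdR alone, the same HCT116-labelled comparison gave 0.42 for the members and 0.39 for all genes. With that under clorgyline alone it gave 0.04 and -0.24. Over all genes the likeness was therefore hardly closer to the combination than to 5-Aza-CdR. 3 genes that are no members, GAGE12G, H19 and VCX3B, were also high on these arrays, and for GAGE12G and H19 on T24-labelled 5-Aza-CdR arrays as well. They were picked with earlier results of these data known, so they are examples and no test of the likeness. On T24-labelled arrays GAGE12G was 13.17 and 13.25 with the combination, 12.24 and 12.38 with 5-Aza-CdR, 8.11 and 8.06 with clorgyline and 8.14 and 8.10 in controls. On arrays labelled HCT116 it was 11.68 and 10.95 with clorgyline, against 7.61 and 7.67 with the combination, 7.63 and 7.67 with 5-Aza-CdR and 7.69 and 7.64 in controls. H19 on T24-labelled arrays was 11.36 and 10.91 with the combination, 12.14 and 12.45 with 5-Aza-CdR, 8.12 and 8.07 with clorgyline and 8.10 and 8.06 in controls, so it was higher with 5-Aza-CdR than with the combination. VCX3B read 11.40 and 11.53 with the combination, 8.22 and 8.22 with 5-Aza-CdR, 8.01 and 8.05 with clorgyline and 8.04 and 7.998 in controls. On the HCT116-labelled arrays both were higher with clorgyline than in every other condition. The part of the array labels in these values was not tested. Relative to controls of the HCT116 label, both combination arrays lay below both controls for 36 members, both 5-Aza-CdR arrays for 38 and both clorgyline arrays for 21 of 50, against 25.7%, 26% and 25.6% of all genes. MX1, for example, was 7.70 and 7.64 with the combination, 7.61 and 7.64 with 5-Aza-CdR, 9.16 and 8.88 with clorgyline and 9.35 and 9.36 in controls. These are given without a test because treated and control arrays of this label differed in their markers, so treatment and cell type cannot be told apart.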

How the data were processed

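RNA from each condition was hybridised to Illumina HumanHT-12 V4 BeadChips (24 arrays, 2 per condition, 47231 probes). Per the submitters' processing notes the authors used lumi, version 2.8.0 for HL-60 arrays and 2.6.0 for the rest, transformed the signals and applied robust spline normalization, and the deposited values are log2 intensities. Background correction and probe filtering are not given in the sources used here, and detection p values were not used here, so signal over background is judged from each line's median only. Of the probes, 30113 had 1 gene symbol, 8 had several and 17110 were not in the annotation used. The brightest probe of a gene was taken in each line (over both lines for the joint fit). The fits used limma (3.58.1, under R 4.3.3), by line, with 1 coefficient for each condition, moderated spread and Benjamini-Hochberg adjustment over all genes. The joint fit held all 16 arrays of T24 and HL-60, and the HCT116 fit the 6 treated arrays. The procedure was tested on simulated data. The 2 arrays per condition limit the precision. All 50 members are reported by role, with values per array for members called against control, up to 15 in each line by the size of the combination change, and further members named after their values were seen. The members and lists were chosen with earlier results of these data known. Alternatives covered the choice of probe, the threshold, the groups fitted, a replicate block, a second normalization, dim probes, the spread model and leaving out single arrays.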

Additional observations from a re-analysis of the deposited data

Results flagged for a closer look

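The combination effect differed between HL-60 and T24-labelled arrays in 20 members by the test of the difference itself (limma, adjusted p under 0.05). The differences, in log2 units as the HL-60 change minus the T24-labelled change, were positive for MX2 (1.37), LGALS3BP (1.01), IFI30 (0.51) and UBE2L6 (0.36). Those over 1 unit below 0 were of IFI27 (-2.95), IFIT1 (-1.91), IFI6 (-1.81), ISG15 (-1.58), BST2 (-1.34) and MX1 (-1.13). Smaller negative differences were those of HERC5 (-0.99), SP110 (-0.97), IFIT2 (-0.85), ISG20 (-0.76), GBP2 (-0.75), IFITM1 (-0.60) and PARP9 (-0.48), with OAS3 (-0.42), SAMD9 (-0.35) and XAF1 (-0.33) the closest to 0. MX1, HERC5 and SAMD9 were not called in either line on their own. The called differences of SAMD9, XAF1 and UBE2L6 held in only 4, 6 and 9 of 19 alternatives, and those of the other members in 13 or more. IFI27 lay at the median of the line in HL-60 on every array, and the part of this floor in its difference was not tested.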

How the results depend on the processing

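Of 152 counts of members recomputed under alternatives other than leaving out an array, 126 stayed within 1.5 times the reported count, and no called member changed direction. The 126 include counts of 0 that stayed 0. They also include the second normalization, which could hardly move a count, since the sorted values of a line's arrays already lay within 0.0052 of one another. For T24-labelled combination against control (16 higher), the methods' limits gave 4 and bright probes only 8, where brightness is the mean over all arrays, raised ones included. For 5-Aza-CdR against control (0), a trended and robust spread gave 1. For the combination against 5-Aza-CdR (12), the methods' limits gave 5, a fit of only the groups compared 0 and a trended and robust spread 24. Against clorgyline (17), these limits gave 5, only the groups compared 4 and bright probes 9. For the excess (2), the methods' limits gave 4, the replicate block 0, bright probes 5 and a trended and robust spread 15. In HL-60 the methods' limits gave 2 higher and 0 lower with the combination, 1 and 0 with 5-Aza-CdR, 0 and 0 with clorgyline, 0 for the combination over 5-Aza-CdR, and 1 higher and 0 lower for the combination over clorgyline, where bright probes gave 4 higher. The excess in HL-60 (1) was 0 on the mean of all probes and 2 with a trended and robust spread. On HCT116-labelled arrays the methods' limits gave 10 for clorgyline over 5-Aza-CdR (16). Leaving out 1 array gave ranges of 3 to 19, 5 to 17, 5 to 19 and 0 to 11 for the T24-labelled combination against control, 5-Aza-CdR and clorgyline and for the excess. The ranges with 5-Aza-CdR and clorgyline alone were 0 to 0. In HL-60 they were 7 to 9 higher and 1 to 4 lower (combination), 4 to 6 and 2 to 7 (5-Aza-CdR), 1 to 4 and 0 to 2 (clorgyline), 1 to 3 and 0 to 1 (combination over 5-Aza-CdR), 5 to 6 and 2 to 4 (combination over clorgyline) and 0 to 1 (excess). HCT116-labelled ranges were 2 to 12 (clorgyline over 5-Aza-CdR) and 3 to 10 (clorgyline over combination), and those of the line difference 3 to 4 and 11 to 18. A condition left with 1 array is assumed to vary like the others. The causes were not tested. Among members called with the combination, ISG15 and IFI27 of 16 in T24-labelled arrays and ISG15 and MX2 of 13 in HL-60 kept their call under every alternative.

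Replicate numbers are shared across conditions but the labels name no pairing, and deviations of same-numbered arrays correlated at -0.15 to 0.07 on T24-labelled and -0.11 to 0.23 on HL-60 arrays. With the replicate number as a block the combination raised 14 members on T24-labelled arrays and 9 in HL-60. No scanner files were used here, so background correction and a slide block were not run.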

Other observations

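On arrays labelled HCT116, 10 of the 74 further interferon pathway genes were higher with clorgyline than with 5-Aza-CdR (13.5%, against 0.918% of all genes; limma, adjusted p under 0.05) and 0 were lower. They included 3 transcription factors, IRF9 (1.85 ± 0.14, adjusted p = 0.0161), IRF7 (1.07 ± 0.06, adjusted p = 0.0117) and IRF1 (0.63 ± 0.07, adjusted p = 0.0428). Genes of class I antigen presentation were also higher, among them B2M, the light chain of class I molecules (1.28 ± 0.09, adjusted p = 0.0161), TAP1, a subunit of the peptide transporter (0.99 ± 0.10, adjusted p = 0.0395), PSME1, a proteasome activator subunit (0.99 ± 0.12, adjusted p = 0.0451), and HLA-B (0.86 ± 0.07, adjusted p = 0.0212). The part of the array labels in these values was not tested. Of the 20 antigen presentation genes, 6 were higher with clorgyline than with 5-Aza-CdR on arrays labelled HCT116. The comparisons on T24-labelled arrays are of another kind. There the combination had 0 of the 20 higher against control (3.12% of all genes), 0 against 5-Aza-CdR (1.65%) and 3 against clorgyline (2.61%).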
